A study of Mus musculus with 8 samples.

Results

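Promoters of autosomal long noncoding RNAs (lncRNAs) were followed in ATAC-seq peak lists from mouse hematopoietic stem and progenitor cells. ATAC-seq marks open chromatin by the places where the Tn5 transposase can insert sequencing adapters. A peak counted as a lncRNA promoter peak when its summit, the base of highest signal, lay on chromosomes 1 to 19, within 1 kb of a transcription start site (TSS) of a lincRNA or antisense gene and more than 3 kb from every protein-coding TSS (GENCODE M21 basic, mm10). The rule uses position alone and no measured value. Across the 8 lists 8389 of 501728 peaks met it, and overlapping peaks merged to 1847 regions of 121512 autosomal regions in all. A further 8418 peaks lay within 1 kb of a lncRNA TSS but also within 3 kb of a protein-coding TSS, and they were left out.

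The study sorted bone marrow cells of female mice aged 4.5 months, of the strain labelled 129Sv4/Jae x B6. LSK+ cells were lineage-negative, SCA-1-positive and c-KIT-positive, the gate that holds the hematopoietic stem cells. LSK- cells were lineage-negative, SCA-1-negative and c-KIT-positive, the gate of committed myeloid and erythroid progenitors. In XistΔ/Δ mice both copies of Xist, the lncRNA that coats and silences the inactive X chromosome, were deleted in blood cells by an iCre transgene driven by the Vav1 promoter and inserted in Commd10. Whether the wild-type (WT) mice carried the Cre is not given in the sources used here, nor is the number of mice behind a library. The 4 groups were LSK+ WT, LSK+ XistΔ/Δ, LSK- WT and LSK- XistΔ/Δ, with 2 libraries each and about 10000 cells in a reaction. The number in a library's label also marks its sequencing run, so every replicate 1 shares a run code and every replicate 2 another.

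LincRNA genes lie between protein-coding genes, whereas antisense genes run against a protein-coding gene on the other strand. Some lncRNAs act in the nucleus on neighbouring genes or on nuclear bodies, and others are hosts from which microRNAs (miRNAs) or small nucleolar RNAs (snoRNAs) are cut. Their promoters are known to hold fewer CpG dinucleotides than protein-coding promoters and to be used in fewer cell types. In the blood system stem cell chromatin is bound by RUNX and ETS family factors such as PU.1, and GATA factors lead the erythroid and megakaryocytic programs.

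The following 200 base windows, centred on the strongest summit, are examples picked by name from the promoters described here. The first belongs to the member with the highest lowest percentile over the 8 lists, the next pair to miRNA hosts of blood cells, Gm12542 and Gm42982 to members higher in LSK+ cells, and the last 3 to members higher in LSK- cells. Capitals mark the motifs searched, on either strand. They are, in order, chr16:42875545-42875744, chr11:87755451-87755650, chr16:84702934-84703133, chr4:59895152-59895351, chr5:44220543-44220742, chr3:100438555-100438754, chr1:130741369-130741568 and chr7:100467206-100467405, all on the plus strand of the RefSeq genome of build GRCm38 (mm10).
4932412D23Rik: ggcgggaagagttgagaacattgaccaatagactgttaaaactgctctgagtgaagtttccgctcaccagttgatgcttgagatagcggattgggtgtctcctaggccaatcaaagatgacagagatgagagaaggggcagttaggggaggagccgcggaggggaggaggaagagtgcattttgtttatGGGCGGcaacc
Mir142hg: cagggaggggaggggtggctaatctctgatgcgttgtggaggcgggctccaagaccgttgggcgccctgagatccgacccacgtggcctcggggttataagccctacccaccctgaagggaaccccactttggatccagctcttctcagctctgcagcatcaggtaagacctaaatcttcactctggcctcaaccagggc
Mir155hg: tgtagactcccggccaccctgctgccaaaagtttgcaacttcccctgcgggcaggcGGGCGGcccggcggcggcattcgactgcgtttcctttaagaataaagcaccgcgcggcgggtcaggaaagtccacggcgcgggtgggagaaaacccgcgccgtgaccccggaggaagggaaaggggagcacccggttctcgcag
Gm12542: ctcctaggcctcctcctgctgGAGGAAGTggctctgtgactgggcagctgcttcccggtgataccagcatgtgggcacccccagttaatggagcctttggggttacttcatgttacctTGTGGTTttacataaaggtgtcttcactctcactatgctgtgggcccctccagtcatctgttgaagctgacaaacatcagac
Gm42982: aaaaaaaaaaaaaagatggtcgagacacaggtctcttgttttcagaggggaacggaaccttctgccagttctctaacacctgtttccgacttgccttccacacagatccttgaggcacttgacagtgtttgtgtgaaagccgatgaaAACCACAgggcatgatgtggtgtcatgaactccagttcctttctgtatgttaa
Gm43121: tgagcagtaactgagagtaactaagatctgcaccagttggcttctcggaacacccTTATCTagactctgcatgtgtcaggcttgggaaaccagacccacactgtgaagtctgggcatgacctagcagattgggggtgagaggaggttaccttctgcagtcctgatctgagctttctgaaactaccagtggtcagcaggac
Gm28857: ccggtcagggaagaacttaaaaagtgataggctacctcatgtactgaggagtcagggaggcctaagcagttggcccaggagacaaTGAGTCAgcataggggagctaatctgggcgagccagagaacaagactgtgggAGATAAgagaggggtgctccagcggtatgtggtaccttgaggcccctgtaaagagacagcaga
Gm10603: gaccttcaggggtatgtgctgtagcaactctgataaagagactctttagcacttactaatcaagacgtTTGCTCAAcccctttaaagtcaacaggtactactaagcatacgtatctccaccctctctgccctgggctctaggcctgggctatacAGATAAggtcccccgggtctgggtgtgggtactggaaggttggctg
The window of 4932412D23Rik and that of Mir155hg hold a GC box (GGGCGG), the site of SP and KLF factors. That of Gm12542 holds a PU.1 motif (GAGGAAGT) and a RUNX motif (TGTGGTT), and that of Gm42982 a RUNX motif on the minus strand. All 3 windows printed for members higher in LSK- cells hold a GATA motif (AGATAA), in Gm43121 on the minus strand. They are picked examples and do not give its share. In the sets of members higher in LSK- cells described further on, the motif lay in 50.0% and 13.95% of 300 bp windows. No searched motif lies in the window of Mir142hg.

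The deposited lists differed in length and depth. They held 29829 to 91590 peaks, and for each cell type and replicate number the XistΔ/Δ list was the longer. LSK+ WT replicate 2 and LSK- WT replicate 2 were the shortest, with 29829 and 37578 peaks. The lowest local background of a list, the fragments expected over a base by chance and a measure of depth, ran from 0.482 fragments in LSK+ WT replicate 2 to 3.87 in LSK- XistΔ/Δ replicate 1. A peak within 1 kb of the Xist TSS was in 3 of 4 WT lists, at percentiles of 20.2 to 52.3, and in 0 of 4 XistΔ/Δ lists. LSK+ WT replicate 2 was the WT list without it. Among genes of mature lineages that the sort removes, Cd3e, Cd8a, Cd4, Cd79a and Ly6g had no promoter peak in any list, Pax5 had one in 1 list, and Itgam, which encodes CD11b, had one in 3 LSK+ and 3 LSK- lists. The promoters of Klf1 and Gata1, the erythroid factors, had peaks in 4 of 4 LSK- lists and in 0 of 4 LSK+ lists. Of the other LSK- markers listed, Epor and Mpo had peaks in 4 LSK+ and 4 LSK- lists and Gfi1b in 3 and 4. Elane had peaks in 0 LSK+ and 2 LSK- lists and Cebpe in 1 and 2. Ly6a, which encodes the sorted marker SCA-1, had no promoter peak in any list. Of the other LSK+ markers listed, Hlf, Mecom, Hoxa9, Meis1 and Flt3 had peaks in 4 LSK+ and 4 LSK- lists and Procr in 3 and 2. Their mean percentile was higher in LSK+ cells except at Hoxa9, with 71.1 in LSK+ and 76.7 in LSK- cells.

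Most lncRNA promoters were open in only some of the libraries. Of 1847 regions, 431 (23.3%) had a peak in all 8 lists and 347 (18.8%) in a single list, against 62.1% and 8.98% of 16594 protein-coding promoters. Distal regions, over 3 kb from any TSS, lay on the other side, with 9.67% in all 8 lists and 27.9% in a single list. A list held between 608 members, in LSK+ WT replicate 2, and 1407, in LSK- XistΔ/Δ replicate 1, so the shortest list held the fewest and the longest the most. Of 6576 lncRNA genes with a TSS that could meet the rule, 1680 (25.5%) had a promoter peak in at least 1 list and 419 (6.37%) in every list. For protein-coding genes these shares were 69.8% and 52.5%. LincRNA genes gave 1244 regions, 25.1% of them in all 8 lists, and antisense genes 603, of which 19.7% were in all 8.

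**Figure D1:**
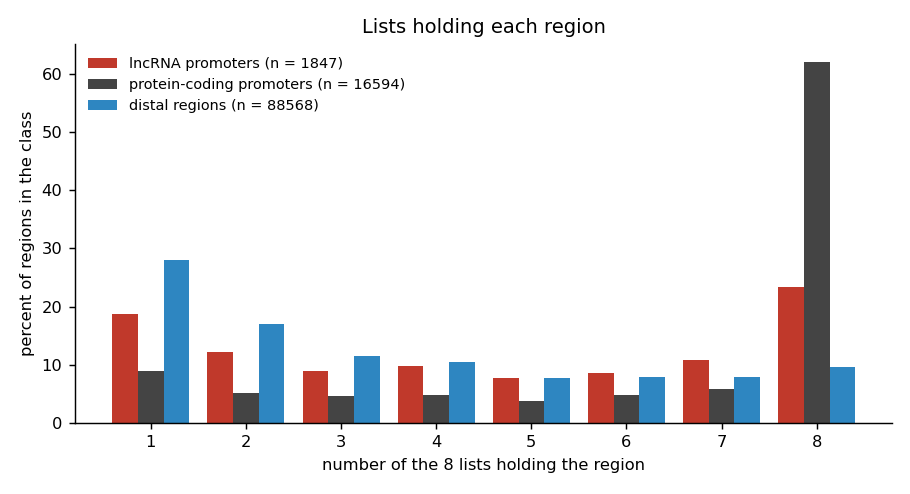
Number of the 8 peak lists that held a region (horizontal axis) and the percent of regions of each class (vertical axis), for 1847 lncRNA promoters, 16594 protein-coding promoters and 88568 distal regions. The bar for all 8 lists stands at 23.3% for lncRNA promoters, between 62.1% for protein-coding promoters and 9.67% for distal regions.

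The regions were short and mostly away from protein-coding genes. Their median width was 526 bp, with a range of 118 to 3662 bp, and the summit lay a median of 305 bp from the lncRNA TSS. The nearest protein-coding TSS was a median of 36926 bp away. Outside protein-coding genes lay 1331 members, in an intron of such a gene 445 and in an exon 71. Of 479 members with the summit within 100 bp of the TSS, 29.2% were in all 8 lists, and of 648 with the summit over 500 bp away, 16.5%. At the edge of the rule, 1069 peaks in the last 200 bp inside the 1 kb limit had a median percentile of 51.5 and 874 peaks in the first 200 bp outside it had 45.0. For the distance to a protein-coding TSS, 129 peaks up to 500 bp beyond the 3 kb limit, which count as members, had a median of 46.1 and 137 peaks up to 500 bp short of it had 50.0.

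CpG content divided the members. A 300 bp window around the strongest summit was called CpG-rich when GC was at least 50% and the observed over expected CpG ratio at least 0.6. CpG-rich windows lay under 237 members (12.8%), against 64.2% of protein-coding promoters and 1.81% of distal regions. Of these 237 members 53.6% were in all 8 lists, and of 1610 CpG-poor members 18.9%. The median observed over expected ratio was 0.293 over all members, 0.449 in those of all 8 lists and 0.219 in those of a single list. A GC box lay in 34.8% of the members in all 8 lists, in 17.98% of all members and in 58.3% of protein-coding promoters.

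Where a lncRNA promoter had a peak, it ranked in the middle of its list. The percentile used here ranks a peak among all peaks of its list by the deposited −log10 p, so that the strongest peak stands at the top of the scale and a region without a peak is given 0. The median percentile of lncRNA promoter peaks was 54.4 and 43.6 (LSK+ WT), 55.5 and 51.6 (LSK+ XistΔ/Δ), 53.3 and 48.6 (LSK- WT) and 53.5 and 53.8 (LSK- XistΔ/Δ) (replicate 1 first, as throughout). Protein-coding promoter peaks had medians of 74.9 to 85.7 and distal peaks of 36.04 to 45.5. The lncRNA median was below the protein-coding median in 8 of 8 libraries, by 28.3 percentile points on average (SD 4.57, n = 8), a difference larger than the spread between libraries (two-sided exact sign-flip permutation test, p = 0.0078125, the smallest that 256 sign assignments can give). When only the replicate number was taken as the unit, the smallest p that the test can give was 0.5, and this was its value. In fragments piled up at the summit, a whole number that the deposited fold and p-value give together, the medians were 16 to 55 for lncRNA promoters and 37 to 156 for protein-coding promoters. CpG content moved with this difference. CpG-rich lncRNA promoters had library medians of 58.6 to 78.6 and CpG-poor ones 40.2 to 54.5, against 79.6 to 91.3 and 55.6 to 65.0 for protein-coding promoters of the same classes, and its part in the difference was not tested further.

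**Figure D2:**
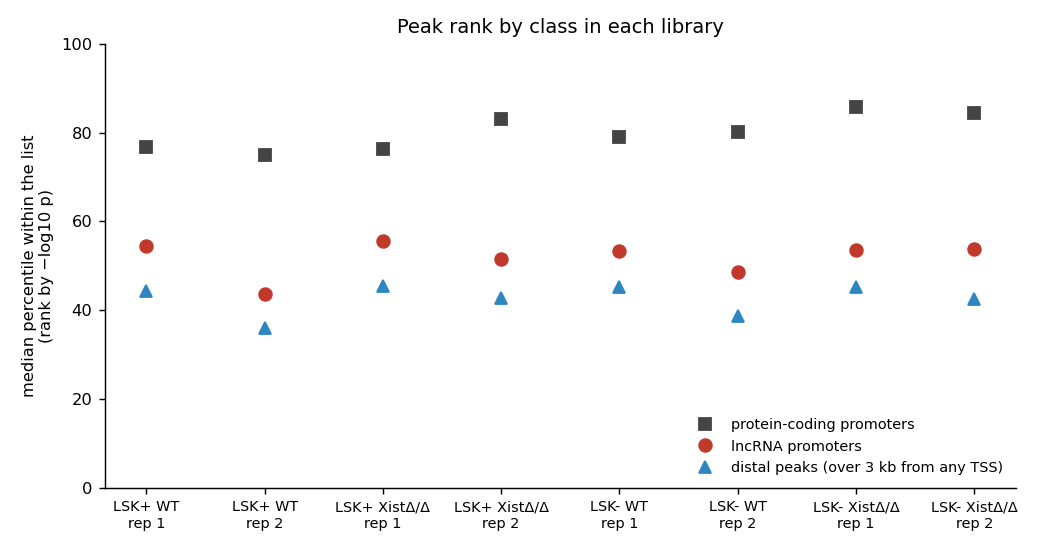
Median percentile within the list (vertical axis, rank by −log10 p) of lncRNA promoter peaks, protein-coding promoter peaks and distal peaks in each of the 8 libraries (horizontal axis). In every library the lncRNA point, at 43.6 to 55.5, lies below the protein-coding point and above the distal one.

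The most open lncRNA promoters ranked near the top of every list. The 10 with the highest lowest percentile over the 8 lists were 4932412D23Rik, Gm44686, 1700096K18Rik, Gm15287, Gm20732, Gm10010, Gm37494, Gm33195, Gm5165 and 5430416N02Rik, and none of them fell under the percentile of 95.8. All but Gm44686 and Gm15287, which are antisense genes, are lincRNA genes. The region of 4932412D23Rik (chr16:42874933-42875913), an exon of a lincRNA 32007 bp from the TSS of Zbtb20, held 327 and 263 fragments (LSK+ WT), 515 and 386 (LSK+ XistΔ/Δ), 389 and 369 (LSK- WT) and 935 and 376 (LSK- XistΔ/Δ). Its lowest percentile was 98.8, and no group stood apart. Gm44686 (chr7:73537410-73538350) lies in an intron of Chd2, which encodes a chromatin remodeller, 3806 bp from its TSS, and its lowest percentile was 98.6.

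Among miRNA hosts, 7 of the 13 genes listed were annotated as autosomal lncRNAs and 6 had a member. Mir142hg, the host of miR-142, which is abundant in blood cells, stood at 77.2 and 86.7 (LSK+ WT), 86.2 and 94.3 (LSK+ XistΔ/Δ), 86.9 and 89.8 (LSK- WT) and 92.5 and 94.4 (LSK- XistΔ/Δ). The 2 cell types overlapped there. Mir17hg, the host of the oncogenic miR-17 cluster, stood at 61.5 to 80.3 in LSK+ and at 82.4 to 89.0 in LSK- cells, without overlap, though its adjusted p was 0.30 (limma; 0.0583 to 0.762 over the alternatives). Mir155hg, the host of miR-155, which is induced in activated immune cells, stood at 77.6 and 63.6 (LSK+ WT), 65.1 and 70.3 (LSK+ XistΔ/Δ), 16.6 and 8.73 (LSK- WT) and 33.6 and 60.3 (LSK- XistΔ/Δ). Every LSK+ value lay above every LSK- value, most closely against LSK- XistΔ/Δ replicate 2. Mir9-3hg, Mir124a-1hg and Dnm3os, better known from neural and connective tissue, reached at most 58.9 and were in no more than 5 lists a region.

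The listed snoRNA hosts that had a member were open in every library. Of 11 listed genes 8 were annotated, and all 5 with a member, Epb41l4aos, Snhg12, Snhg20, Snhg6 and Snhg7os, had it in all 8 lists, with CpG-rich windows. Snhg10, Snhg18 and Snhg9 had none. Snhg7os, an antisense gene, entered the list by its Snhg name. Snhg6 was the strongest, at 94.1 to 97.2. Snhg20 was the weakest, at 41.5 to 77.3, with 59.6 and 42.3 (LSK+ WT) and 50.7 and 41.5 (LSK- WT) below 74.6 and 70.1 (LSK+ XistΔ/Δ) and 77.3 and 66.9 (LSK- XistΔ/Δ). Its 2 genotypes did not overlap, yet its genotype difference did not pass the test that is given further on for all members.

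Imprinted lncRNAs differed among themselves. Of 9 listed genes 6 were annotated and 3 had a member. Kcnq1ot1, the antisense RNA that silences its imprinted cluster on the paternal chromosome, was open throughout, at 97.2 and 87.8 (LSK+ WT), 95.5 and 92.0 (LSK+ XistΔ/Δ), 95.1 and 89.6 (LSK- WT) and 96.2 and 92.7 (LSK- XistΔ/Δ). Airn, which silences Igf2r, had a peak at its start in the Igf2r intron in all 8 lists, at 12.1 to 51.5. A further Airn start, chr17:12815760-12816431, outside Igf2r, had peaks in 4 of 4 LSK- lists, at 15.5 to 85.4, and in 0 of 4 LSK+ lists. Meg3, expressed from the maternal chromosome, had a peak in LSK+ WT replicate 1 alone, at 4.95.

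Of 11 widely expressed lncRNAs 8 were annotated and 6 had a member. Malat1, an abundant nuclear RNA, stood at 74.7 to 94.2, and the main start of Neat1, the scaffold of paraspeckles, at 77.1 to 92.5, both in all 8 lists. Pvt1, the neighbour of Myc, was weaker, at 14.7 to 62.9. Its 4 WT values, 35.8 and 19.9 in LSK+ and 14.7 and 17.1 in LSK-, lay below its 4 XistΔ/Δ values, 41.4 and 61.1 in LSK+ and 62.9 and 59.1 in LSK-. The genotype difference at Pvt1 did not pass either (limma adjusted p = 0.9997). Its WT peaks were weak, with 9 to 20 fragments, and the XistΔ/Δ lists were the longer ones. Trp53cor1, a p53 target beside Cdkn1a, had its main region in 7 lists and Lncpint its 3 regions in 5 or 6. Rmst, known from neural differentiation, was unlike the others, at 96.1 and 56.0 (LSK+ WT), 97.4 and 75.9 (LSK+ XistΔ/Δ), 84.2 and 6.31 (LSK- WT) and 78.0 and 15.5 (LSK- XistΔ/Δ). Here replicate 1 was far above replicate 2 in every group, and within each replicate number both LSK+ values exceeded both LSK- values.

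Some of the listed blood and immune lncRNAs had a qualifying peak. Of 19 listed genes 11 were annotated as autosomal lncRNAs, so only these could have a member, and 4 did. Among all 6576 lncRNA genes that could meet the rule, 25.5% had a promoter peak in at least 1 list. Lockd, which lies downstream of the cell cycle inhibitor gene Cdkn1b, stood at 90.9 to 97.6 in all 8 lists. Ptgs2os2 stood at 79.4 to 98.8 and the main region of Mirt1 at 66.2 to 96.1. Bach2os, in an intron of the lymphoid regulator Bach2, had a peak in 3 lists, all of them XistΔ/Δ, at 33.6 to 58.1. Over these 5 lists of genes no member passed the cell type test given next, and with the replicate number in the fit Mir155hg, Rmst and Mirt1 passed as higher in LSK+ and Snhg7os as higher in LSK- cells.

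LSK+ and LSK- cells were compared to ask which lncRNA promoters change in accessibility between stem-enriched and committed progenitors. Among the 431 members in all 8 lists, 6 were higher in LSK+ and 4 higher in LSK- cells. Gm42982, Gm17122, Gm36756, Gm15978, Gm35202 and Gm12542 were the first, and Gm28857, Gm43121, Gm39321 and AY036118 the second. The test was limma on the normal score of each region's rank, that is the rank turned into the matching quantile of a normal distribution, over 21192 regions, with Benjamini-Hochberg adjusted p under 0.05. Of all regions tested 1.29% were called higher in LSK+ and 0.717% higher in LSK- cells. With the replicate number as a block, 68 members (15.8%) were higher in LSK+ and 43 (10.0%) higher in LSK- cells, against 12.6% and 10.4% of all regions, so the members' shares were near those of all regions in either fit. All 10 members called without the block were also called with it, in the same direction. The calls without the block were fragile, with 4 and 1 members called without LSK+ XistΔ/Δ replicate 2, and 0 to 2 and 0 without any other library. Fewer cells with an open promoter and less opening in each cell cannot be told apart in these bulk libraries.

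The members higher in LSK+ cells lie mostly in or beside genes of other functions, and the lncRNAs themselves have only provisional names. Gm12542 (chr4:59894903-59895677), antisense in an intron of the sorting nexin gene Snx30, stood at 90.7 and 81.3 (LSK+ WT), 90.3 and 82.0 (LSK+ XistΔ/Δ), 58.7 and 49.1 (LSK- WT) and 60.4 and 44.4 (LSK- XistΔ/Δ). The 4 LSK+ values lay above the 4 LSK- values by a wide gap, and the normal scores differed by 1.36 ± 0.22 (SE; limma adjusted p = 0.0347, and 1.1e-05 with the block; 1.1e-05 to 0.160 over 25 alternatives). Gm42982 (chr5:44220346-44220954), antisense in an intron of Tapt1, had the largest difference, 1.65 ± 0.30 (adjusted p = 0.0368, and 2.1e-06 with the block; 1.2e-07 to 0.164 over 24 alternatives). Its values were 94.7 and 63.1 (LSK+ WT), 95.9 and 87.6 (LSK+ XistΔ/Δ), 38.4 and 37.8 (LSK- WT) and 63.1 and 57.2 (LSK- XistΔ/Δ). The groups barely separated, because LSK+ WT replicate 2 met LSK- XistΔ/Δ replicate 1.

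Gm35202, a lincRNA 42760 bp from the TSS of Ggta1, stood at 79.5 to 96.8 in LSK+ and 51.3 to 76.5 in LSK- cells. Gm17122, antisense and 11532 bp from the TSS of Selplg, which encodes the P-selectin ligand of leukocytes, stood at 75.7 to 95.5 and 43.5 to 70.1. Gm36756, in an intron of Ccdc88c, stood at 67.6 to 91.3 and 22.3 to 64.5. In none of these did the cell types overlap. Gm15978, in an intron of Ttc7, overlapped, at 41.9 to 87.0 in LSK+ and 8.74 to 47.9 in LSK- cells, with LSK+ WT replicate 2 as the low value. The adjusted p values of the 4 were 0.0347 to 0.0493 (limma), and none had a CpG observed over expected ratio above 0.319.

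Of the members higher in LSK- cells, Gm28857 and Gm43121 had a plain shift and AY036118 is of doubtful identity. Gm28857 (chr1:130740704-130741891), antisense in an intron of AA986860, stood at 45.4 and 41.2 (LSK+ WT), 59.6 and 42.4 (LSK+ XistΔ/Δ), 88.8 and 73.6 (LSK- WT) and 94.2 and 79.0 (LSK- XistΔ/Δ), a difference of -1.57 ± 0.31 in normal scores (adjusted p = 0.0434, and 1.4e-05 with the block; 1.4e-07 to 0.194 over 26 alternatives). Gm43121 (chr3:100438317-100439416), an exon of a lincRNA 50669 bp from the TSS of Tent5c, stood at 56.9 and 21.7 (LSK+ WT), 56.5 and 61.1 (LSK+ XistΔ/Δ), 92.3 and 70.6 (LSK- WT) and 94.6 and 79.8 (LSK- XistΔ/Δ), a difference of -1.55 ± 0.28 (adjusted p = 0.0388, and 5.4e-06 with the block; 3.2e-06 to 0.182 over 24 alternatives). In neither did the cell types overlap. Gm39321, 17484 bp from the TSS of Sorl1, stood at 4.98 to 49.6 in LSK+ and 50.0 to 73.0 in LSK- cells. The cell types barely separated there, and 11 of 24 alternatives called it. AY036118, at 71.2 to 92.3 and 94.4 to 98.2, lies with Gm26917 in a copy of the ribosomal RNA repeat on chromosome 17, so reads of other copies may be counted there and its value is uncertain. Its adjusted p was 0.04997 (limma) and rose to as much as 0.937 in an alternative.

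Members that only the blocked fit called included some of the largest differences. F630040K05Rik (chr17:45756673-45757225) stood at 55.7 and 56.7 (LSK+ WT), 61.0 and 61.1 (LSK+ XistΔ/Δ), 3.02 and 22.5 (LSK- WT) and 14.0 and 0.0624 (LSK- XistΔ/Δ). The cell types lay far apart, and the difference of 1.85 had an adjusted p of 0.0722, and of 0.00027 with the block (limma). For Rmst these were 0.228 and 1.5e-06, for Mir155hg 0.0811 and 0.0010, and for Snhg7os, 0.127 and 0.0030. On the LSK- side, 2310001H17Rik, Gm38102, 9230112J17Rik, Gm13201 and Gm26654 differed by 1.04 to 1.40 in normal scores towards LSK- cells, with adjusted p of 0.0579 to 0.183 without the block. Of the 111 blocked calls 20 had cell types that did not overlap in percentile.

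Members whose nearest protein-coding gene, at any distance, is a blood regulator were examined separately. Among 72 regulator genes listed, 29 were the nearest protein-coding gene of a member, with 50 regions, of which 11 were in all 8 lists. Without the block 0 of the 11 passed, and with it 3 were higher in LSK+ and 1 higher in LSK- cells, counts too small to set apart from the 12.6% and 10.4% of all regions. Gm38708, 4101 bp from the TSS of Gata2, was the latter, at 79.98 and 52.7 (LSK+ WT), 70.5 and 76.0 (LSK+ XistΔ/Δ), 94.0 and 79.1 (LSK- WT) and 94.0 and 86.3 (LSK- XistΔ/Δ) (adjusted p 0.0714 without and 0.00032 with the block, limma). Gm26692, 36023 bp from the TSS of the repressor Gfi1, was higher in LSK+ cells, at 63.8 to 91.7 against 52.2 to 72.6 (0.102 and 0.0017). Gm29114 and Gm12066 lay 170415 and 119843 bp from the TSS of Ikzf2 and Bcl11a, genes of lymphoid factors. Their adjusted p were 0.239 and 0.165, and 0.0012 and 0.00085 with the block (limma). Of those missing from some lists, Gm12462 in an intron of Pax5 stood at 4.98 to 49.8 in the 4 LSK+ lists and at most at 7.86 in LSK- lists, and Gm26626 in an intron of Runx1 had a peak in 3 LSK- lists alone.

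The comparison was also made over all 1847 members, including those missing from some lists, by asking whether all 4 libraries of a cell type ranked above all 4 of the other. LSK+ was higher at 48 members (2.60%) and LSK- at 62 (3.36%), against 2.08% and 3.61% of all autosomal regions. With the same number of top peaks, 29829, taken from each list, the counts were 80 (8.57%) and 59 (6.32%) of 934 members, against 7.32% and 6.11% of all regions, so the side with more calls turned over with list length, for the members as for all regions. Without LSK+ WT replicate 2, the shortest list, 258 members were higher in LSK+ and 62 in LSK- cells, and without LSK- WT replicate 2, the next shortest, 49 and 164. These counts without a library were not made over all autosomal regions, so they are not a result about the members. In every LSK+ list and no LSK- list were 13 members (0.704%, against 0.598% of all regions), and in every LSK- list and no LSK+ list 34 (1.84%, against 2.14%), shares near those of all regions.

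Among the members named here as absent from a whole cell type, those on the LSK- side mostly had the higher percentiles. They were drawn from sets of unequal size, 34 members on the LSK- side and 13 on the LSK+ side. Whether the whole sets differ in strength was not tested. Gm10603 (chr7:100467065-100467722), antisense in an intron of C2cd3 and 5685 bp from the TSS of Ucp3, stood at 90.3 and 74.2 (LSK- WT) and 95.6 and 81.8 (LSK- XistΔ/Δ), with 104, 52, 348 and 73 fragments, and had no peak in LSK+ cells. Gm26798 in an intron of Ppp6r2, Gm8013, Gm49024, Gm32281 and Gm16287 followed, with LSK- values between 56.8 and 95.6. Of the LSK+ members, Gm15123 (chr10:80371287-80371902) stood at 49.5 and 44.6 in WT and at 55.7 and 47.8 in XistΔ/Δ, with 30, 17, 48 and 34 fragments, and had no peak in LSK- cells. Gm26724 in an intron of Lemd2, Gm36793, 9330198I05Rik, A330048O09Rik near Id4 and Gm26517 ran from 11.4 to 84.9 in LSK+ lists.

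**Figure D3:**
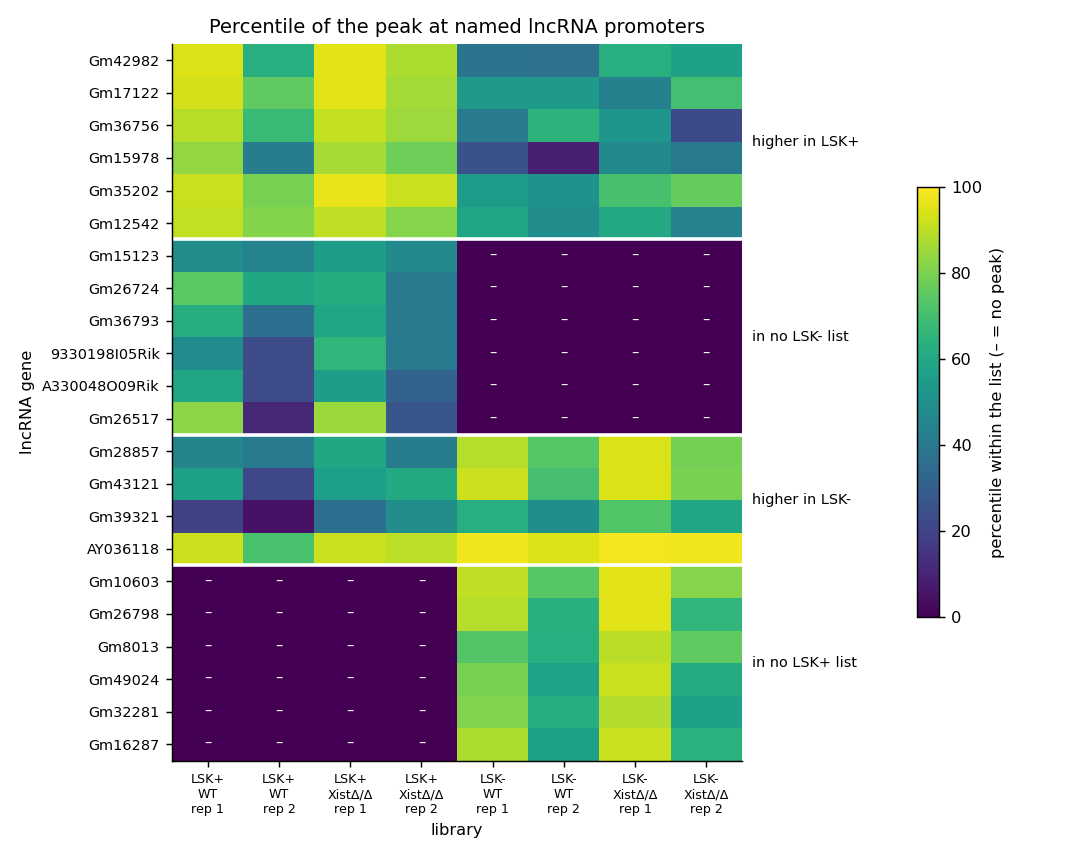
Percentile within the list (colour, 0 to 100) of 22 lncRNA promoters (rows) in the 8 libraries (columns), with a dash where a list had no peak. From top to bottom the blocks are the 6 called higher in LSK+ cells by limma, 6 in no LSK- list, the 4 called higher in LSK- cells and 6 in no LSK+ list. Gm15978 and Gm42982 show the low LSK+ WT replicate 2 value, and Gm10603 the high LSK- values.

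The sequence under these members differed between members separated by cell type. The GATA motif AGATAA lay in the 300 bp window of 31 of 62 members (50.0%) higher in LSK- cells and of 3 of 48 (6.25%) higher in LSK+ cells, against 16.2% of all members. The RUNX motif TGTGGTT lay in 20.8% of the LSK+ members, 11.3% of the LSK- members and 11.4% of all members. The contrast was not the same among members called with the replicate block, which were in all 8 lists. There GATA lay in 7.35% of 68 higher in LSK+ and 13.95% of 43 higher in LSK- cells, and RUNX in 22.1% and 6.98%. The PU.1 motif GAGGAAGT lay in 19.1% and 4.65% of these, but in 6.25% and 1.61% of the members separated by cell type, with 7.58% over all members. AP-1 turned over between the sets, at 17.6% and 4.65% of the blocked calls and at 10.4% and 20.97% of the separated members, LSK+ first. CpG-rich windows made up 10.3% of the blocked calls higher in LSK+ cells, 37.2% of those higher in LSK- cells and 32.5% of the 320 members tested and not called. The same GATA contrast held over all autosomal regions, with 53.7% of 4386 regions higher in LSK- and 8.18% of 2532 higher in LSK+ cells, so it was not particular to lncRNA promoters. In these regions, LSK+ first, RUNX lay in 17.3% and 13.8%, PU.1 in 8.81% and 3.53% and AP-1 in 15.2% and 11.1%. RUNX and PU.1 thus leaned the same way as in the separated members, and AP-1 the other way. All motifs were searched on both strands as exact letters. The shares of all autosomal windows holding them were 21.2% for GATA, 13.1% for RUNX, 7.95% for PU.1, 11.1% for AP-1 (TGANTCA), 13.8% for C/EBP (TTGCNNAA) and 15.8% for the GC box. A match is a run of letters and does not show that a factor was bound.

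**Figure D4:**
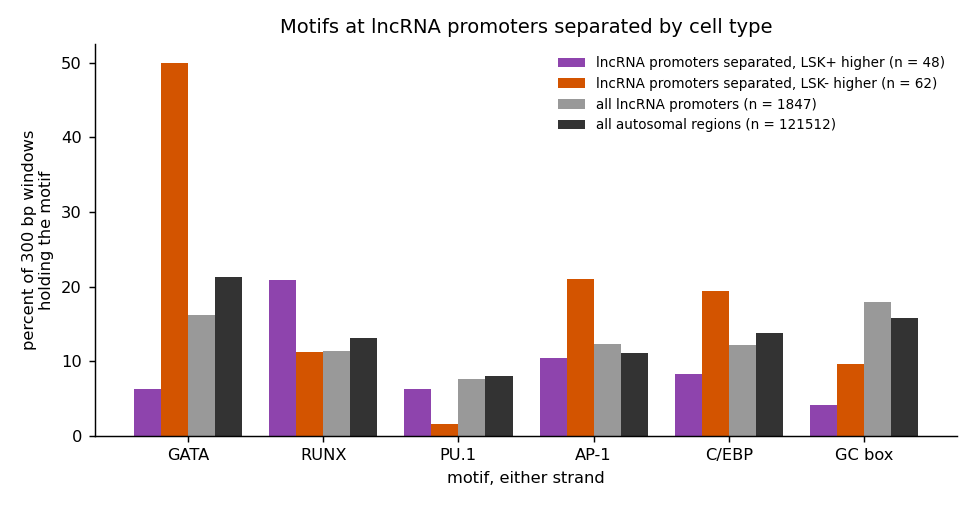
Percent of 300 bp windows that held each motif on either strand (vertical axis) for 48 lncRNA promoters higher in all LSK+ libraries, 62 higher in all LSK- libraries, all 1847 lncRNA promoters and all 121512 autosomal regions. The GATA bar of the LSK- members reaches 50.0%, against 6.25% for the LSK+ members.

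Finally, XistΔ/Δ and WT cells were compared at these autosomal sites. No lncRNA promoter passed the test for genotype (limma), nor for a genotype effect that differs between the cell types, and 0% of all regions tested were called in either. At an unadjusted p under 0.05 there were 7 of 431 members for genotype and 2 for the interaction, of 156 and 132 regions in all. With the replicate block 3 of the 21192 regions (0.0142%) and 0 members passed for genotype, and 0 regions for the interaction, with 36 and 17 members at an unadjusted p under 0.05, of 1104 and 1098 regions in all. Lists of XistΔ/Δ cells gave lncRNA promoters 1.73% ± 0.148 (SD, n = 2) of their peaks in LSK+ and 1.58% ± 0.121 in LSK- cells, against 1.86% ± 0.212 and 1.70% ± 0.192 in WT. The mean difference within cell type was -0.126 percentage points (two-sided exact permutation within cell type, p = 0.333). The median percentile differed by 3.64 points (exact permutation p = 0.222). XistΔ/Δ had the lower share and the higher median in 4 of 4 pairs matched by sort and library number, and the exact permutation p within such pairs was 0.125 for each, the smallest it can be. In each pair the XistΔ/Δ list was also the longer. With equal list lengths the share differed by -0.052 percentage points and the median by 0.742 points. Between cell types, LSK+ minus LSK-, the share differed by 0.153 points (exact permutation p = 0.222) and the median by -1.04 points (p = 0.722). Within pairs of the same genotype and replicate number these p were 0.125 and 0.625, by exact permutation. The smallest p that these 36 assignments can give is 0.0556, so none could pass 0.05. The sign of the cell type difference in the median turned without LSK+ WT replicate 2, to 1.66, and without LSK- WT replicate 1, to 0.12.

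By separation, 74 members (4.01%) ranked higher in all 4 XistΔ/Δ libraries than in any WT library, against 3.15% of all autosomal regions, and 0 members ranked higher in all 4 WT libraries, against 0.00165%. The count was 156 without LSK+ WT replicate 1, 178 without LSK- WT replicate 1, 136 without LSK+ XistΔ/Δ replicate 1 and 121 without LSK- XistΔ/Δ replicate 2, all of it higher in XistΔ/Δ. Without a library the count was not made over all regions. With all 8 libraries it was one-sided over all regions too, so it is not particular to the members. In every XistΔ/Δ list and no WT list were 7 members (0.379%, against 0.452% of all regions). Among them, Gm48548 (chr13:53775808-53776001), a lincRNA 279773 bp from the nearest protein-coding TSS, stood at 34.4 and 34.6 (LSK+ XistΔ/Δ) and 47.5 and 36.5 (LSK- XistΔ/Δ), with 21, 17, 39 and 17 fragments. 4930556J02Rik, BC018473, Gm13814, AC111128.2 and 4930444F02Rik followed, with XistΔ/Δ values of 2.50 to 46.4, so all of them were weak peaks. Depth moved with genotype here. Within each cell type and replicate number the XistΔ/Δ list was the longer, with 82488 and 63184 peaks against 63373 and 29829 in LSK+, and 91590 and 62533 against 71153 and 37578 in LSK- cells, and the background was 0.962 to 3.87 fragments against 0.482 to 1.47. When each list was reduced to its 29829 strongest peaks, 4 of 934 members ranked higher in all XistΔ/Δ libraries and 3 higher in all WT libraries, against 0.204% and 0.198% of all regions.

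**Figure D5:**
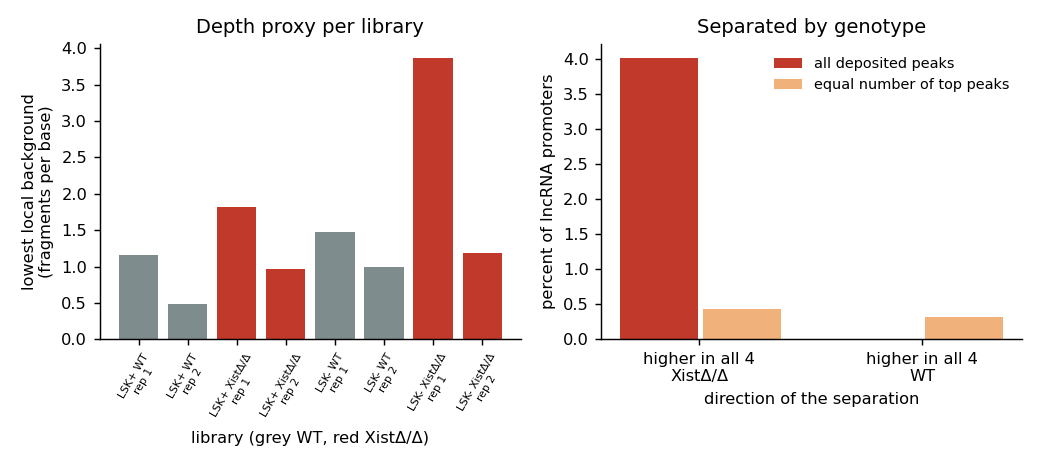
Left, the lowest local background of each list, in fragments covering a base (vertical axis), by library (grey WT, red XistΔ/Δ). Right, the percent of lncRNA promoters that ranked higher in all 4 libraries of a genotype than in all 4 of the other (vertical axis), with all deposited peaks and with the 29829 strongest peaks of each list. The 4.01% higher in XistΔ/Δ with all peaks stands beside 0 in WT, and with equal lists 4 members stand beside 3.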

How the data were processed

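ATAC-seq was analysed in 8 libraries of sorted mouse bone marrow cells, grouped by their titles into 4 groups of 2. The authors trimmed reads with Trim Galore, aligned them to mm10 with Bowtie2 2.3.5.1, removed mitochondrial reads and alignments of quality under 30 with SAMtools 1.10, and ran MACS2 2.2.7.1 on the paired-end fragments of every library by itself, at a q of 0.01. A removal of duplicate reads, a control library and a Tn5 shift are not given in the sources used here. Each deposited peak carries a ratio (fold over the background around it), p and q as −log10 values, a score and a summit. No read counts were used, and library totals are not given in the lists.

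The rank of a peak came from its −log10 p. Peaks were classed as lncRNA promoter, protein-coding promoter, distal or other. Within a class, peaks of all lists that overlapped by at least 1 bp were merged, so regions of different classes can overlap. The merge of lncRNA promoter peaks was checked against bedtools 2.31.1. A list held a region when any of its peaks, of whatever class, overlapped it. Fragments at the summit were solved from fold and p-value, and a whole number matched within 0.01 of −log10 p for 100% of 501728 peaks. Regions in all 8 lists were fitted with limma 3.58.1 (R 4.3.3, trend), on normal scores with 4 group means and no replicate block, as set at the start, with Benjamini-Hochberg adjustment over all 21192 regions. Medians and shares were tested by exact permutation over libraries. Scripts were tested on simulated data. Replicate numbers follow the sequencing run, and deviations from the group means of same-numbered libraries correlated at 0.399 to 0.689 in all 6 pairs of groups, so the blocked fit is given beside the other. The paper calls the 2 libraries of a group biological replicates. P-values measure the spread between these libraries. Part of it may be technical, since replicate number follows the run and the number of mice is not stated.

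Members and gene lists were chosen with earlier results of these data known. Genes named were the 10 members with the highest lowest percentile, limma calls with the largest difference in each fit, up to 6 members per direction absent from the lower group, every member of the gene lists, and neighbours of listed blood regulators. Those regulator neighbours called with the block, and Gm26917, were named after their values were seen. Alternatives were ranking by fold, equal list lengths, a −log10 q of at least 5, a 500 bp window, gene 5′ ends, 50% cover of the region, log2 fold enrichment, regions in at least 4 lists, the replicate block and leaving out each library. Combinations of some of these with the block were added after the data were seen. Ranges and counts over alternatives given for a member include them.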

Additional observations from a re-analysis of the deposited data

How the results depend on the processing

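The lower rank of lncRNA promoters than of protein-coding promoters kept its direction in every alternative, from -30.1 to -22.3 percentile points, and from -29.3 to -27.7 without each library in turn. With the replicate block the value was -28.3 with p = 0.5, the smallest that exact permutation of 2 numbers can give. The cell type difference in the median percentile ran from -3.74 to 1.66 without each library, reversed at 1.66 without LSK+ WT replicate 2 and at 0.12 without LSK- WT replicate 1; the cause was not tested. The other 3 differences kept their direction and none could pass. With equal list lengths the genotype difference in the median was 0.742 points, against 3.64 in the main setting.

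The limma counts of members higher in LSK+ and in LSK- cells, 6 and 4, depended on the setting. Ranking by fold, equal list lengths, 50% cover and log2 fold enrichment gave 0 and 0, for the members and for all regions. At a −log10 q of at least 5 they were 3 and 1 of 389 members, against 136 and 57 of 19594 regions. A 500 bp window gave 1 and 0 of 343 members, against 161 and 92 of 21960 regions. With regions in at least 4 lists they were 90 and 59 of 1112 members (8.09% and 5.31%), against 4068 and 4599 of 60148 regions. With the replicate block they were 68 and 43. Leaving out each library gave 0 to 4 and 0 to 1. Settings added after seeing the data were regions in at least 4 lists with the block, 204 and 115, log2 fold enrichment with the block, 44 and 32, equal list lengths with the block, 30 and 20, and the block without each library in turn, 27 to 69 and 15 to 43. Genotype and interaction counts were 0 under every setting except 1 member higher in WT with the block and without LSK+ WT replicate 1. Apart from the p of 0.5 above and the counts given here, the block changed no call on the medians, the shares or the members' genotype and interaction counts. Among the 10 members called, 109 of the values under alternatives lost the call, 140 kept it and 0 reversed; the cause was not tested.

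Members separated by cell type, 110 in all, were 65 with a 500 bp window and 42 with 50% cover, and 117 to 320 without each library. Those separated by genotype, 74, were 7 with equal list lengths and 41 with 50% cover, and 77 to 178 without each library. Fewer members or fewer libraries to separate enter these counts by construction. Without a library, neither count was made over all autosomal regions. Depth limits the weak members most, since a region absent from the 29829 peaks of the shortest list may lie under its threshold.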
